A study of Mus musculus with 6 samples.

Results

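MHC class I presentation and the immunoproteasome were followed through 10 genes, taken from the expression table by their symbols, out of the 34745 genes it lists. They were *H2-K1*, *H2-D1*, *B2m*, *Tap1*, *Tap2*, *Tapbp*, *Psmb8*, *Psmb9*, *Psmb10* and *Nlrc5*, and each symbol matched 1 row. RNA-seq had been performed on 3 liver tumors of Prmt3f/f mice (tumors 7, 66 and 71) and 3 of Prmt3LKO mice (tumors 92, 93 and 94), with 1 library for each tumor. Both groups carried the floxed *Prmt3* allele. The Prmt3LKO mice carried the Alb-Cre transgene in addition, whose recombinase is made from the albumin promoter in hepatocytes, so immune, endothelial and stromal cells of the tumor kept *Prmt3*. The labels call the controls WT, and the study describes them as Prmt3f/f, a floxed line without Cre. All mice of both groups had received diethylnitrosamine (DEN, 25 mg/kg at 2 weeks of age) and then 10% carbon tetrachloride (CCl4, 0.5 ml/kg, from 6 weeks), which together induce hepatocellular carcinoma, and tumors were collected at 26 weeks. All animals were male by the study's methods. The labels do not state whether any of these tumors came from the same mouse, so the p-values measure the spread between these tumors.

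Class I molecules are heterotrimers of a polymorphic heavy chain, the light chain β2-microglobulin and a peptide cut from a cytosolic protein, and they show this peptide to CD8+ T cells. Proteasomes cut the protein, the TAP transporter carries the peptide into the endoplasmic reticulum, and tapasin with its chaperones loads it onto the heavy chain. In cells exposed to interferon-γ, newly made proteasomes take up 3 replacement catalytic subunits and are then called immunoproteasomes. Hepatocytes carry little class I at rest and more in inflamed liver, while leukocytes carry much. In bulk tumor RNA, fewer cells of a type and less RNA per cell cannot be told apart.

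Total counts ranged from 18440244 to 27976598 reads per tumor, and *Alb*, the main secretory product of hepatocytes, took 11.0% to 16.1% of them. None of the 15 pairs of libraries agreed within sampling noise. *Prmt3* was at 6.60, 8.48 and 10.2 CPM (read counts over the TMM-scaled library size) in the Prmt3f/f tumors 7, 66 and 71, and at 2.80, 2.03 and 3.82 CPM in the Prmt3LKO tumors 92, 93 and 94. The groups did not overlap, in the direction of the labels (log2 fold change -1.55, standard error 0.29, edgeR quasi-likelihood test, adjusted p = 0.592).

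Upstream sequences are shown for the genes whose regulation is shared by position or by motif, because *Tap1* and *Psmb9* are read in opposite directions from 1 short stretch and because the heavy chains and *B2m* are textbook targets of NF-κB and of the class I enhanceosome. RefSeq promoter windows (GRCm38.p6) matched 8 of the 10 genes, and *Tap2* and *Nlrc5* were not matched. By RefSeq starts, the stretch between *Psmb9* and *Tap1* was 225 bases long (chr17:34187331-34187555, written on the + strand, with *Psmb9* leaving to the left and *Tap1* to the right). For *H2-K1* (chr17:34000334-34000533, - strand), *H2-D1* (chr17:35262894-35263093, + strand) and *B2m* (chr2:122147487-122147686, + strand) the 200 bases before the start are shown. Each is written 5′ to 3′ and capitals mark every match, on either strand, of the 5 motifs searched.
*Psmb9* to *Tap1*: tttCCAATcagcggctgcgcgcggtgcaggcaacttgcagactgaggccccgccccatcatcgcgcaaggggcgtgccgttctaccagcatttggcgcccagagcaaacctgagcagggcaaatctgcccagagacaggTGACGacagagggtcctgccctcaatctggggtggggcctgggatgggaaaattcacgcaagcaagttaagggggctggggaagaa
*H2-K1*: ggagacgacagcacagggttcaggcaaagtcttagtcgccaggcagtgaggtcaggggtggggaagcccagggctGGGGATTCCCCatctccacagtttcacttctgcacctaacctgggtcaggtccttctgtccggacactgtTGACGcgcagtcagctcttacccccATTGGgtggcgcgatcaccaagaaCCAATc
*H2-D1*: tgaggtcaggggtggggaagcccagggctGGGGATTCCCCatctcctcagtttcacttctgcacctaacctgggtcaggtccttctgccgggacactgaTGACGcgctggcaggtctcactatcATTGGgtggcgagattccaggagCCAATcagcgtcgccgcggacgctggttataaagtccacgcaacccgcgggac
*B2m*: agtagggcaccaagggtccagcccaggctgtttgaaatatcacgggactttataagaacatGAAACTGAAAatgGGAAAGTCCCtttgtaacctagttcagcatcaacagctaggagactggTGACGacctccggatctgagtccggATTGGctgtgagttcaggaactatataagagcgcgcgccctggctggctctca

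The motifs were the interferon-stimulated response element (ISRE, GAAANNGAAA), the interferon-γ activated site GAS (TTCNNNGAA), the CCAAT box, the NF-κB consensus and the TGACG core of the cyclic AMP response element, which is also that of the X2 box of class I promoters. In the 250 bases before the start, the ISRE was found in 1 of 8 genes (*B2m*) and in 2.98% of 32851 promoters of this length, and the NF-κB consensus in 3 of 8 (*H2-K1*, *H2-D1* and *B2m*) and in 3.90%. TGACG was found in 5 of 8 and in 17.8% of promoters, and CCAAT in 6 of 8 and in 33.8%. *Tap1* and *Psmb9* are each counted here for the same TGACG and the same CCAAT of the stretch between them. GAS was found in 1 of 8 (*Psmb8*) and in 7.02%. The printed *H2-K1* and *H2-D1* stretches share an unbroken run of 46 bases that holds the NF-κB match, and in both a TGACG and a reversed CCAAT follow it. In *B2m* the same order was seen, with the ISRE 139 bases before the start ahead of the NF-κB match at 126, TGACG at 78 and the reversed CCAAT at 53. Only exact matches were counted, so sites that depart from these letters are missed. A gene without an ISRE or GAS match may still hold an interferon site. Such matches describe the letters of these windows, and binding was not measured.

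The heavy chains, *B2m*, *Tap2*, *Tapbp* and all 3 immunoproteasome subunits overlapped between tumors of the 2 genotypes, with folds from 0.915 to 1.08. *Tap1* and *Nlrc5* were lower in every Prmt3LKO tumor than in every Prmt3f/f tumor, by 0.625-fold and 0.817-fold, and neither passed adjustment over all genes. All 10 genes passed the filter on low counts. At the limits of a call (adjusted p under 0.05, and a fold of 2 or more or of 0.5 or less), edgeR called 0 of the 10, as it called 0 of 13892 genes tested (0.00%), and DESeq2 called 0 of the 10 beside 52 of 14200 genes (0.366%). At an unadjusted p under 0.05, 1 of the 10 was lower (*Tap1*) and 0 were higher, beside 4.37% of all genes lower and 2.20% higher. Groups did not overlap for 2 of the 10, both lower, beside 6.59% of all genes lower and 5.57% higher. The median log2 fold change was -0.07 over the 10 genes and 0.0 over all genes, and 7 of the 10 were below 0. Leaving out 1 tumor turned the sign of 7 of the 10, but not that of *Tap1*, *Tapbp* or *Nlrc5*.

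**Figure D1:**
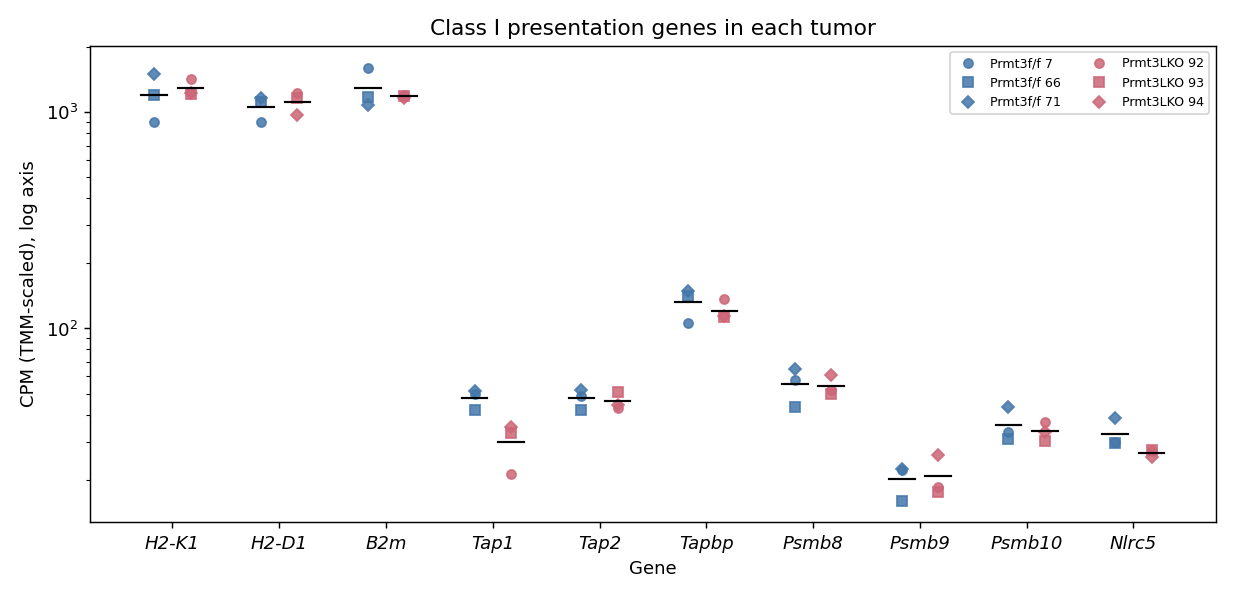
Level of each class I gene in each tumor, in CPM on a log axis, with 1 point per tumor, blue for Prmt3f/f, red for Prmt3LKO and black bars for group means. The red points lie wholly below the blue ones for *Tap1* (21.2 to 35.1 against 42.1 to 51.2 CPM) and *Nlrc5* (25.4 to 27.5 against 29.5 to 38.5 CPM), and the groups overlap for the other 8 genes.

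*H2-K1* (ENSMUSG00000061232, GRCm38 chr17:33996017-34000333, - strand) encodes the heavy chain of H-2K, a classical class I molecule. It was at 896.8, 1196 and 1496 CPM in Prmt3f/f tumors 7, 66 and 71, and at 1426, 1216 and 1223 CPM in Prmt3LKO tumors 92, 93 and 94. Control tumors held both the lowest and the highest value, with the Prmt3LKO tumors between them. Between the genotypes the log2 fold change was 0.11 (standard error 0.24, 95% interval -0.44 to 0.66, edgeR, adjusted p = 0.983).

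*H2-D1* (ENSMUSG00000073411, chr17:35262730-35267499, + strand) encodes the heavy chain of H-2D, the other classical molecule. Its levels were 901.9, 1118 and 1159 CPM in the controls and 1227, 1160 and 965.8 CPM in Prmt3LKO tumors. The highest value was in Prmt3LKO tumor 92 and the lowest in Prmt3f/f tumor 7, so the groups overlapped. Its log2 fold change was 0.08 (standard error 0.20, 95% interval -0.39 to 0.55, edgeR, adjusted p = 0.986).

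*B2m* (ENSMUSG00000060802, chr2:122147686-122153083, + strand) encodes β2-microglobulin, without which most heavy chains do not reach the cell surface. It was at 1608, 1177 and 1076 CPM in Prmt3f/f tumors and at 1198, 1188 and 1161 CPM in Prmt3LKO tumors. Tumor 7 stood above all others, and the 3 Prmt3LKO tumors lay close together, with a coefficient of variation of 1.64% against 21.9% in the controls. Prmt3LKO over Prmt3f/f, the log2 fold change was -0.12 (standard error 0.21, 95% interval -0.62 to 0.38, edgeR, adjusted p = 0.968). In tumor 7 the light chain was at its highest and both heavy chains were at their lowest.

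*Tap1* (ENSMUSG00000037321, chr17:34187553-34197225, + strand) encodes a subunit of the peptide transporter of the endoplasmic reticulum. It was counted 1077, 904 and 1458 times in Prmt3f/f tumors and 372, 732 and 699 times in Prmt3LKO tumors, which is 49.7, 42.1 and 51.2 CPM against 21.2, 33.0 and 35.1 CPM. Every Prmt3LKO tumor was below every control, and tumor 92 was the lowest. The means were 47.7 ± 4.86 and 29.8 ± 7.47 CPM (SD, n = 3 each). The log2 fold change was -0.68 (standard error 0.21, 95% interval -1.16 to -0.19, edgeR, unadjusted p = 0.0124, adjusted p = 0.624). Over the log2 CPM, an exact permutation test (two-sided) had p = 0.1, and 3 tumors against 3 cannot give less.

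*Tap2* (ENSMUSG00000024339, chr17:34203527-34216321, + strand) encodes the partner of *Tap1* in the transporter. It was at 48.8, 42.1 and 51.9 CPM in Prmt3f/f tumors and at 42.8, 50.7 and 44.4 CPM in Prmt3LKO tumors. The groups overlapped over a range of 1.23-fold across all 6 tumors, the narrowest of the 10 genes. Its log2 fold change was -0.05 (standard error 0.14, 95% interval -0.38 to 0.28, edgeR, adjusted p = 0.988).

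*Tapbp* (ENSMUSG00000024308, chr17:33915899-33929288, + strand) encodes tapasin, which bridges the transporter and empty heavy chains. Its levels were 106.2, 141.1 and 149.3 CPM in the controls and 136.4, 112.4 and 114.2 CPM in Prmt3LKO tumors, again with control tumors at both ends. For *Tapbp* the log2 fold change was -0.13 (standard error 0.18, 95% interval -0.55 to 0.29, edgeR, adjusted p = 0.963). The annotated span overlaps *Zbtb22* on the same strand by 3421 bases, and reads there could be counted for either gene.

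*Psmb8* (ENSMUSG00000024338, chr17:34197721-34201454, + strand) encodes β5i, the chymotrypsin-like subunit of the immunoproteasome. It was at 57.8, 43.5 and 65.0 CPM in Prmt3f/f tumors and at 51.9, 49.6 and 60.9 CPM in Prmt3LKO tumors. All 3 Prmt3LKO values lay within the range of the controls. For *Psmb8* the log2 fold change was -0.04 (standard error 0.18, 95% interval -0.46 to 0.39, edgeR, adjusted p = 0.993).

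*Psmb9* (ENSMUSG00000096727, chr17:34181988-34187764, - strand) encodes β1i, which cuts after hydrophobic residues. It was at 22.2, 16.0 and 22.4 CPM in Prmt3f/f tumors and at 18.4, 17.6 and 26.1 CPM in Prmt3LKO tumors. Prmt3LKO tumor 94 had the highest level and Prmt3f/f tumor 66 the lowest. The log2 fold change was 0.04 (standard error 0.21, 95% interval -0.46 to 0.53, edgeR, adjusted p = 0.995).

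*Psmb10* (ENSMUSG00000031897, chr8:105935728-105938392, - strand) encodes β2i, the trypsin-like subunit, and lies outside the H2 complex. Its levels were 33.1, 30.9 and 43.3 CPM in the controls and 37.0, 30.1 and 33.2 CPM in Prmt3LKO tumors. The groups overlapped, with Prmt3f/f tumor 71 above the rest. Its log2 fold change was -0.10 (standard error 0.17, 95% interval -0.50 to 0.30, edgeR, adjusted p = 0.968).

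*Nlrc5* (ENSMUSG00000074151, chr8:94472763-94527272, + strand) encodes the transactivator that assembles on class I promoters. It was at 29.7, 29.5 and 38.5 CPM in Prmt3f/f tumors and at 27.0, 27.5 and 25.4 CPM in Prmt3LKO tumors. Every Prmt3LKO tumor was below every control, and control tumor 71 stood above the rest. The means were 32.5 ± 5.13 and 26.6 ± 1.11 CPM (SD, n = 3 each). The log2 fold change was -0.29 (standard error 0.15, 95% interval -0.65 to 0.06, edgeR, unadjusted p = 0.0939, adjusted p = 0.801), with p = 0.1 by the exact two-sided permutation test. Without tumor 71 it was -0.15.

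**Figure D2:**
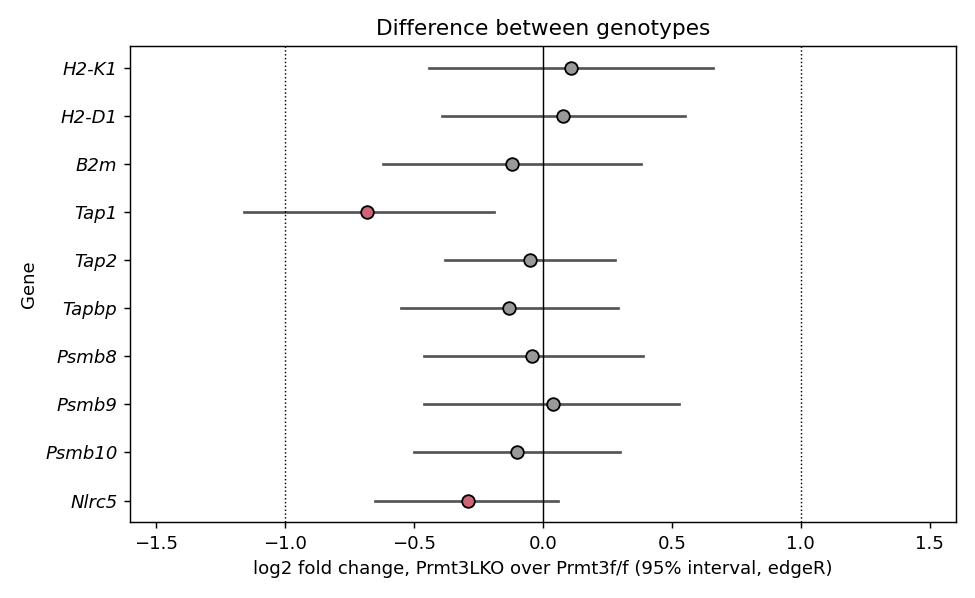
Log2 fold change of each class I gene in Prmt3LKO over Prmt3f/f tumors with its 95% interval from edgeR, red where the groups do not overlap; dotted lines mark a 2-fold change. The interval of *Tap1* (-1.16 to -0.19) is the one that leaves 0 and crosses the dotted line, and the other 9 stay within 2-fold both ways.

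For 9 of the 10 genes the 95% interval lay within a 2-fold change in both directions, beside 67.5% of all genes tested. *Tap1* was the exception, with a fold of 0.625 (95% interval 0.447 to 0.874). Across tumors rather than genotypes, Prmt3f/f tumor 71 had the highest level of 7 of the 10 genes. Their mean log2 CPM, centred on each gene, was 0.22 in tumor 71 and between -0.08 and 0.01 in the other 5 tumors. The summed level of the 10 genes was 3748 to 4224 CPM in Prmt3f/f tumors and 3642 to 4046 CPM in Prmt3LKO tumors. Unlike the CPM of single genes, this sum is over the total count, without TMM scaling. Of the 12110 other genes compared, the 5 with the profile over 6 tumors most like the mean of the 10 were *Braf*, *Cfap20*, *Tbc1d14*, *Rock1* and *Usp3*, with root mean square differences of 0.0374 to 0.0460 on the log2 scale. Among the 10 themselves, *Tap2* followed the mean profile most closely (0.0988) and *Tap1* least (0.375).

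Levels were compared between genes only per length. On the deposited FPKM scale, *B2m* had the highest level, with a mean of 1438 FPKM over 6 tumors and a range of 1273 to 1926. *H2-D1* (mean 350.1 FPKM) and *H2-K1* (170.6 FPKM) followed, and the ranges of these 3 did not overlap. *Psmb10* (27.2 FPKM) and *Tapbp* (26.8 FPKM) could not be told apart, with *Psmb10* above in 4 of 6 tumors. *Psmb8* (14.3 FPKM) and *Tap2* (8.75 FPKM) came next. *Tap1* (3.32 FPKM) and *Psmb9* (3.25 FPKM) overlapped. *Nlrc5* had the lowest mean at 2.39 FPKM, below *Psmb9* in 6 of 6 tumors though their ranges overlapped. In Prmt3LKO tumor 92 *Tap1* (1.72 FPKM) was below *Nlrc5* (2.07 FPKM).

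The order of the heavy chains depended on the length used. The deposited count and FPKM imply a length of 7271 bases for *H2-K1*, longer than its span of 4317 bases, where the exons of GENCODE M21 sum to 2938 bases. With CPM per kb of these exons, an alternative added after seeing the data, *H2-K1* (422.8) and *H2-D1* (422.1) could not be ranked, each being above the other in 3 of 6 tumors. On that scale *Tapbp* (34.9) was above *Psmb10* (20.3) in 6 of 6 tumors. Implied lengths exceeded the span also for *Tap1* (11741 against 9673 bases), *Psmb8* (3848 against 3734) and *Psmb9* (6303 against 5777), and for 6.08% of 8975 well counted genes. A fixed length cancels when 1 gene, or 1 ratio of single genes, is compared between tumors, but not within a sum of genes.

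**Figure D3:**
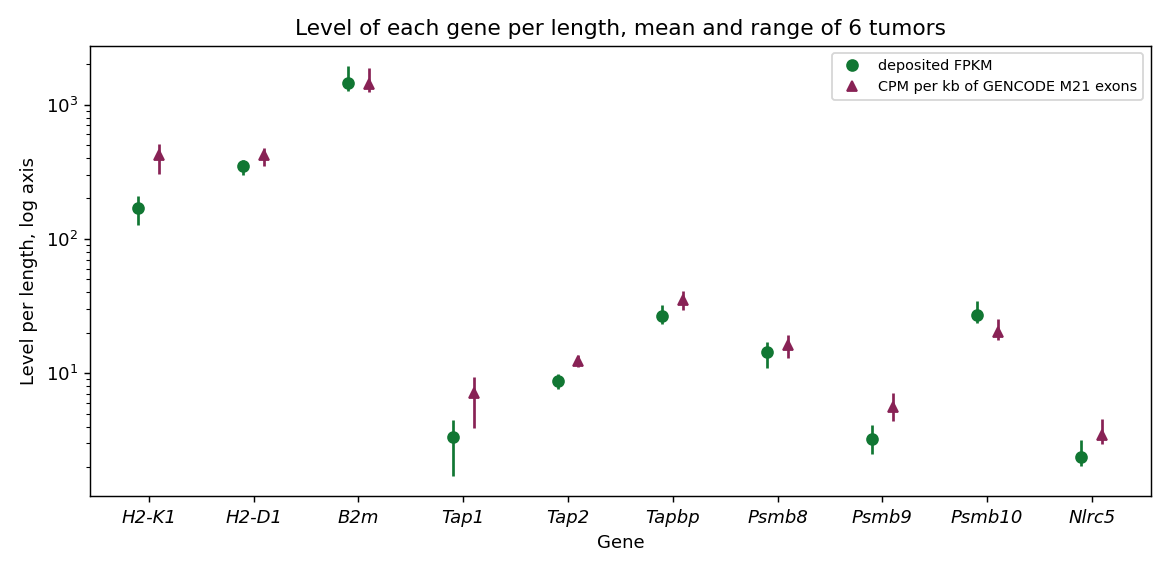
Mean level of each gene over 6 tumors per length, on a log axis, as deposited FPKM (green circles) and as CPM per kb of GENCODE M21 exons (purple triangles), with lines from the lowest to the highest tumor. *B2m* leads on both scales (1438 and 1436), and *H2-K1* and *H2-D1* are apart on the first scale and level on the second (422.8 and 422.1).

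Of the summed level of 16 class I heavy chain genes, in CPM per kb of exons, *H2-K1* held 24.9% ± 4.78 in Prmt3f/f and 26.1% ± 1.44 in Prmt3LKO tumors (SD, n = 3 each). *H2-D1* held 25.3% ± 2.15 and 25.8% ± 2.77. *H2-Q10*, which encodes a class I molecule secreted by hepatocytes, held 31.3% ± 7.86 and 30.0% ± 4.83, the largest mean share of the 16 genes on this scale. In tumor 71 *H2-K1* held more (29.5% against 24.9%) and in tumor 93 *H2-D1* (27.6% against 26.6%). By deposited FPKM the mean level of *H2-D1* (350.1) was above that of *H2-Q10* (317.9), in 4 of 6 tumors. *H2-T23*, which encodes Qa-1, a ligand of NKG2A, held 6.46% ± 0.938 and 6.76% ± 1.01. Differences of these shares between genotypes were smaller than the spread between tumors. Stretches of 100 bases were shared with another annotated gene for 0.957% of those in *H2-K1* transcripts and 3.59% in *H2-D1*. For stretches of 50 bases the shares were 9.63% and 12.8%.

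Ratios between genes within a tumor were compared for 7 pairs, with p-values from exact two-sided permutation tests (smallest possible 0.1) and Benjamini-Hochberg adjustment over the 7. The ratio of *Tap1* to *Tap2* was 0.465, 0.457 and 0.451 by FPKM in Prmt3f/f tumors and 0.227, 0.297 and 0.361 in Prmt3LKO tumors. The controls agreed closely, and every Prmt3LKO tumor was below them. The difference was -0.66 on the log2 scale (SD 0.02 and 0.34, n = 3 each, exact p = 0.1, adjusted 0.35).

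*Psmb9* and *Tap1*, the neighbors that start from the stretch printed above, differed in their values. Their ratio was 0.832, 0.707 and 0.814 by FPKM in the controls and 1.61, 0.995 and 1.38 in Prmt3LKO tumors, higher in every one. This is a log2 difference of 0.74 (SD 0.13 and 0.36, n = 3 each, exact p = 0.1, adjusted 0.35). By the coordinates of the file the genes overlap by 212 bases on opposite strands, and whether the counting used strand is not given in the sources used here. Reads of that overlap could pass between these genes, and their part in the result was not tested. This ratio and that of *Tap1* to *Tap2* both hold *Tap1*, whose own log2 fold change was -0.68. It was -0.05 for *Tap2* and 0.04 for *Psmb9*, so the ratios restate the difference of *Tap1*.

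*Psmb8*, *Psmb9* and *Psmb10* replace the constitutive catalytic subunits *Psmb5*, *Psmb6* and *Psmb7*, so each pair was set as a ratio. *Psmb8* to *Psmb5* was 0.177, 0.211 and 0.288 by FPKM in Prmt3f/f and 0.165, 0.144 and 0.198 in Prmt3LKO tumors. The log2 difference was -0.40 (exact permutation p = 0.2, adjusted 0.467). Without Prmt3f/f tumor 71 this difference was -0.21, and without Prmt3f/f tumor 7 it was -0.56. Controls 66 and 71 were above all Prmt3LKO tumors, and control 7 was not. *Psmb5* itself was at 74.0, 46.7 and 51.0 CPM in the controls and at 71.1, 78.2 and 69.6 CPM in Prmt3LKO tumors, and its log2 fold change was 0.35 (standard error 0.20, edgeR, adjusted p = 0.821). The ratio of *Psmb9* to *Psmb6* differed by -0.10 on the log2 scale (exact permutation p = 0.6) and that of *Psmb10* to *Psmb7* by -0.23 (exact permutation p = 0.5), both with an adjusted value of 0.8. Without Prmt3f/f tumor 71 the difference for *Psmb10* to *Psmb7* was -0.02, and without Prmt3f/f tumor 7 it was -0.47. As shares of the pair by FPKM, *Psmb8* was 18.3% ± 3.75 and 14.4% ± 2.0, *Psmb9* 10.3% ± 1.75 and 9.80% ± 2.24, and *Psmb10* 53.1% ± 7.87 and 49.1% ± 2.57 (SD, n = 3 each). Per kb of GENCODE M21 exons the share of *Psmb10* was 44.9% ± 7.78 and 40.8% ± 2.48. Over all tumors every pair overlapped between the genotypes. *Psmb10* to *Psmb7* was 0.81 by FPKM in control 7, 1.18 and 1.52 in controls 66 and 71, and 1.04, 0.858 and 1.0 in Prmt3LKO tumors. *Psmb6* and *Psmb7* were lower in controls 66 and 71, and higher in control 7, than in every Prmt3LKO tumor.

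The light chain was compared with the heavy chains, since the assembled molecule holds 1 of each. *B2m* to the sum of *H2-K1* and *H2-D1* was 4.52, 2.61 and 2.16 by FPKM in the controls and 2.36, 2.56 and 2.82 in Prmt3LKO tumors, a log2 difference of -0.20 (exact permutation p = 0.8, adjusted 0.8). Tumor 7 alone was above 4. *H2-K1* to *H2-D1* differed by 0.06 on the log2 scale (exact permutation p = 0.8, adjusted 0.8).

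**Figure D4:**
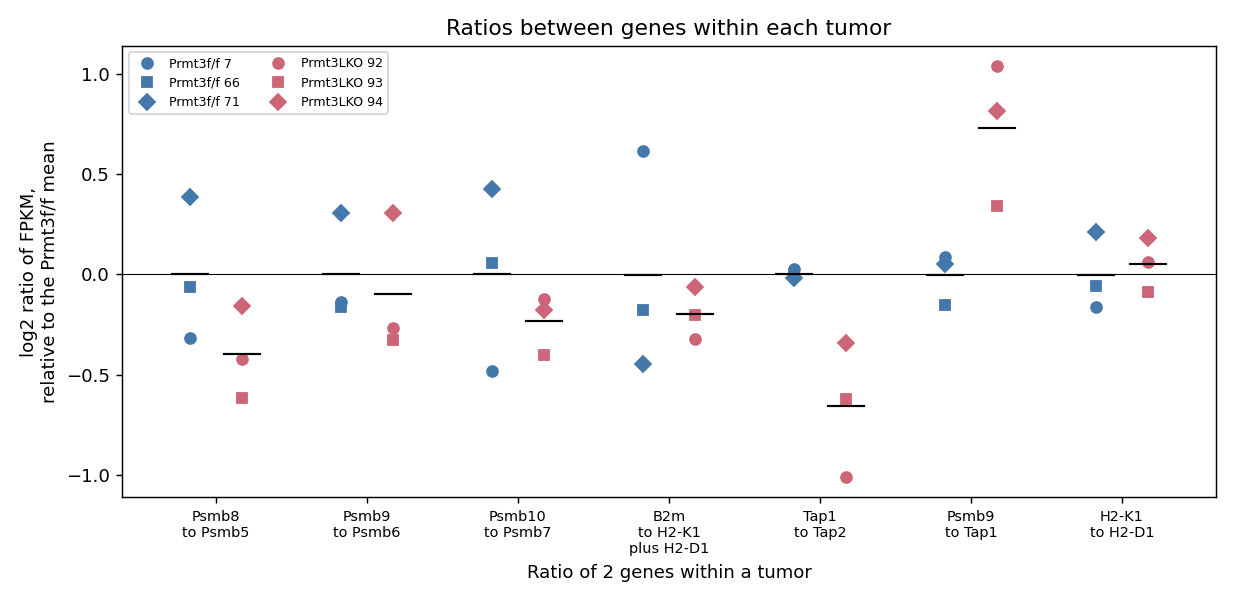
Log2 ratio of 2 genes within each tumor by FPKM, relative to the mean of the Prmt3f/f tumors, with 1 point per tumor and black bars for group means. The groups separate for *Tap1* to *Tap2* (mean difference -0.66) and *Psmb9* to *Tap1* (0.74) and overlap for the other 5 ratios. Both separated ratios hold *Tap1*, which also separates alone.

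Other genes of the pathway were taken from lists of 64 genes, of which 61 were tested. Of these, 4 were lower and 1 higher in every Prmt3LKO tumor (6.56% and 1.64%, beside 6.59% and 5.57% of all genes), with a median log2 fold change of 0.0. Without Prmt3f/f tumor 7 the counts were 7 lower and 16 higher. Without any other 1 tumor they were between 6 and 9 lower and between 2 and 4 higher. With a tumor left out fewer values have to separate, and no share over all genes is set beside these counts. None of the 6 genes of peptide loading and trimming separated the groups (median -0.1). *Calr* and *Pdia3*, a chaperone and a disulfide isomerase of the loading complex, differed by -0.15 and -0.21 on the log2 scale (standard errors 0.17 and 0.19), and *Canx*, which receives the new heavy chain, by -0.05 (0.17). *Erap1*, the aminopeptidase that trims peptides, differed by -0.06 (0.18), and *Tapbpl*, a tapasin-related editor, by -0.14 (0.17). All 14 constitutive 20S genes overlapped (median 0.06), as did the 8 of proteasome activation and assembly (median 0.13). For most 20S genes the overlap rested on Prmt3f/f tumor 7, and controls 66 and 71 were below every Prmt3LKO tumor. The summed 20S level, over the total count without TMM, was 1249 CPM in tumor 7 and 873.1 and 902.3 CPM in tumors 66 and 71. In Prmt3LKO tumors 92, 93 and 94 it was 985.3, 1137 and 1036 CPM. *Psme1* and *Psme2*, the subunits of the interferon-inducible activator PA28, differed by -0.12 (0.15) and 0.08 (0.24). Of 14 non-classical class I genes tested, 1 was higher without overlap (7.14%, near the 5.57% of all genes). It was *Mr1*, which presents vitamin B metabolites, named after its value was seen (log2 fold change 0.53, edgeR, unadjusted p = 0.00767, adjusted p = 0.606). *H2-T23* overlapped (0.10, standard error 0.21).

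Of 19 regulators tested, 4 were lower in every Prmt3LKO tumor (21.1%, beside 6.59% of all genes) and 0 were higher, and *Nlrc5* is counted apart from them. *Ciita*, the class II relative of *Nlrc5*, was at 10.9, 10.1 and 9.06 CPM in Prmt3f/f tumors and at 5.20, 5.50 and 5.98 CPM in Prmt3LKO tumors (log2 fold change -0.85, standard error 0.17, edgeR, unadjusted p = 0.00121, adjusted p = 0.592). *Jak2* (-0.30) and *Irf2* (-0.40) were among them too, named after their values were seen. *Irf1*, an interferon-induced activator of class I genes, overlapped because Prmt3LKO tumor 92 was at 28.3 CPM while tumors 93 and 94 were at 15 and 14.4 CPM, against 24.1 to 34.8 CPM in the controls (-0.57, standard error 0.29, edgeR, adjusted p = 0.791). *Rfx5*, which binds the X box of class I and class II promoters, overlapped (-0.36, standard error 0.19). *Ifng* was too low to test, at 0.0923, 0.326 and 0.281 CPM in the controls and 0.00, 0.0902 and 0.201 CPM in Prmt3LKO tumors.

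Of the class I genes, 7 lie within 1.35 Mb of chromosome 17, in the H2 complex. Of 122 genes tested in the region from *Tapbp* to *Mog* (chr17:33915899-37023398), 9 were lower (7.38%) and 8 higher (6.56%) without overlap, near the 6.59% and 5.57% of all genes, with a median log2 fold change of -0.06. Leaving out 1 tumor gave 11 to 23 lower and 9 to 17 higher, with the most lower without Prmt3LKO tumor 93 (23 lower, 14 higher) and the most higher without Prmt3f/f tumor 71 (18 lower, 17 higher, median -0.01). The counts were 17 and 13 without Prmt3f/f tumor 7, and 18 and 14 without Prmt3LKO tumor 94. Fewer values have to separate when a tumor is left out. No share over all genes is set beside these counts, so they are not read against 6.59% and 5.57%. With all tumors, DESeq2 called 1 of the genes of this region, beside 0.366% of all genes, and edgeR 0, as over all genes.

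Antigen presenting and immune genes gave other values in the same tumors. MHC class II genes had a median log2 fold change of -0.81, with 5 of 9 lower without overlap, and interferon-inducible GTPases one of -0.69, with 11 of 15 lower, where 6.59% of all genes were lower. Without Prmt3f/f tumor 71 the median of the GTPases was -0.46, with 11 lower, where fewer values have to separate. DESeq2 called 5 of the GTPases, 1 of the T cell markers and 0 of the class II genes, beside 0.366% of all genes. By edgeR 0 of each were called, as were 0 of all genes. Summed levels of marker lists are given as CPM over the total count, without TMM scaling. Of the leukocyte markers, 4 of 5 were lower without overlap. Their summed level was 155.5 to 196.7 CPM in Prmt3f/f and 81.7 to 112.7 CPM in Prmt3LKO tumors. For T cell markers, 5 of 7 did not overlap (23.9 to 30.9 against 5.15 to 17.9 CPM). Dendritic cell markers were at 25.9 to 30.4 against 10.6 to 17.6 CPM (3 of 5 lower), macrophage markers at 332.3 to 389.2 against 227.1 to 319.7 CPM (2 of 5 lower), and cytotoxic and natural killer markers at 8.34 to 13.2 against 3.63 to 6.85 CPM (2 of 5 tested lower). B cell markers overlapped in sum, at 5.69 to 7.22 against 4.07 to 6.62 CPM, with 1 of 4 lower. No marker of these lists was at 0 in all tumors.

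*Ptprc*, which marks all leukocytes, had a log2 fold change of -0.81 (standard error 0.15) and *Cd8a*, the coreceptor of T cells that read class I, one of -1.46 (0.32), each with an adjusted p of 0.592 by edgeR. Hepatocyte markers (median -0.04, 0 of 5 separate) and endothelial markers (median -0.1, 0 of 5) overlapped, and *Alb* differed by -0.09 (0.38). *Tap1* and *Nlrc5* were thus lower in the same tumors as the leukocyte markers, and the part of leukocytes in their values was not tested. The other 8 genes overlapped in these tumors.

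**Figure D5:**
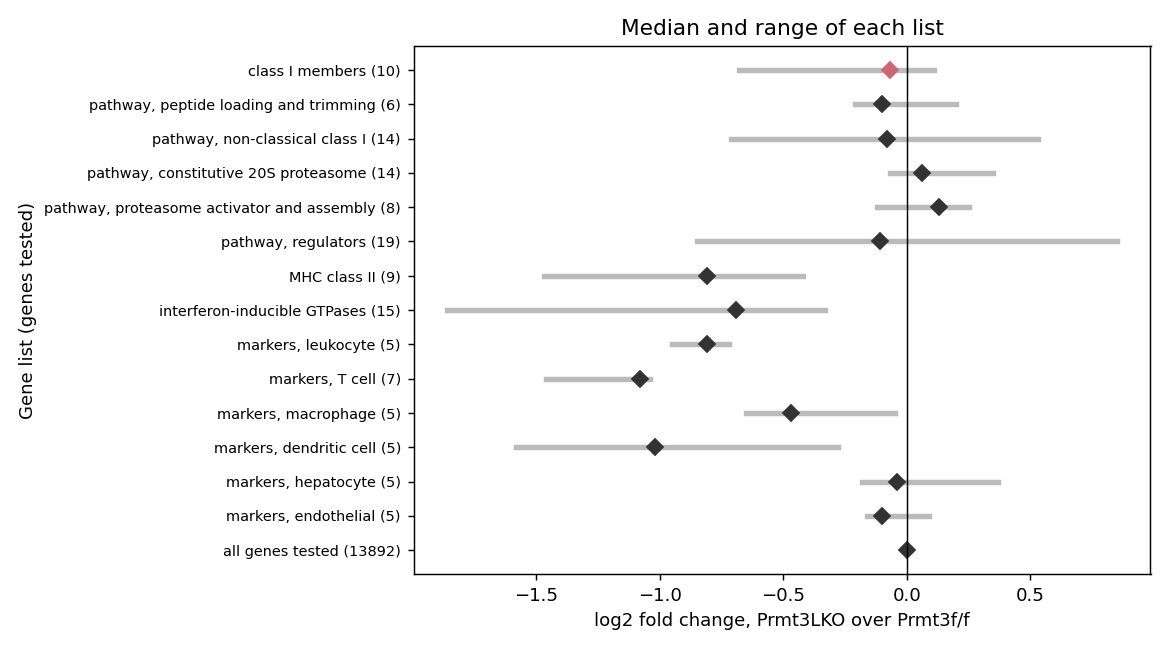
Median (diamond) and range (grey bar) of the log2 fold change, Prmt3LKO over Prmt3f/f, for the class I genes (red) and other gene lists, with the number of genes tested in brackets. The class I median is -0.07 beside -0.81 for MHC class II, -0.69 for interferon-inducible GTPases and -0.04 for hepatocyte markers.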

How the data were processed

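RNA-seq of 6 liver tumors, 3 Prmt3f/f and 3 Prmt3LKO, was analysed from the table of 34745 genes that the authors deposited. They extracted RNA with TRIzol, sequenced it in paired-end mode and aligned it to GRCm38 with HISAT2 2.0.4; the submitters' processing notes also name StringTie 1.3.0 and bcl2fastq 2.19. The counting step, its annotation and its use of strand are not given in the sources used here. The deposited counts are whole reads per gene, not normalized. The FPKM values the authors deposited divide each count by the total count and by a gene length that does not equal the exon length of GENCODE M21. All value columns were matched to a tumor, and 0 columns were left unmatched.

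Counts were filtered with filterByExpr (minimum count 10, minimum total 15), scaled by TMM and fitted by edgeR 4.0.16 (R 4.3.3), whose quasi-likelihood p-values were adjusted by Benjamini-Hochberg over 13892 genes. CPM use TMM-scaled library sizes, and log2 CPM a prior count of 2. The summed CPM of the 10 genes and of the marker lists use total counts without TMM. Groups that do not overlap were counted on CPM. The limits for a call (adjusted p under 0.05, fold change at least 2 or at most 0.5) are those of the study. The test was tried on simulated data first. Alternatives were DESeq2 1.42.0, no TMM, no filter, limma-voom and limma on log2(FPKM + 1) (limma 3.58.1), and leaving out each tumor.

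The 10 genes and the other lists were chosen with earlier results of these data known. Named beside the 10 genes were the pathway genes and markers set in the design, and the 5 genes with the smallest root mean square difference from their mean profile (mean of at least 1 CPM). A gene of the regulator list is not reported here by name. Total counts of 18440244 to 27976598 left from 322 to 42576 reads for each of the 10 genes in a tumor, so the number of tumors limits the precision.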

Additional observations from a re-analysis of the deposited data

How the results depend on the processing

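*Tap1*, *Tapbp* and *Nlrc5* had a negative log2 fold change under all 11 alternatives, with *Tap1* between -0.81 and -0.48, *Tapbp* between -0.27 and -0.03 and *Nlrc5* between -0.36 and -0.15. *Tap1* had an unadjusted p under 0.05 in 12 of 12 settings (0.00648 to 0.0372) and an adjusted p from 0.308 to 1.0. None of the 10 genes was called in any setting. Their median log2 fold change ranged from -0.16 to 0.04, and without single tumors 2 to 3 were lower and 0 to 1 higher without overlap; with 2 tumors on 1 side fewer values have to separate. With 1 tumor left out in turn, *H2-K1* ranged from -0.07 to 0.30, *H2-D1* from -0.04 to 0.17, *B2m* from -0.23 to 0.06, *Tap2* from -0.13 to 0.02, *Psmb8* from -0.18 to 0.10, *Psmb9* from -0.16 to 0.14 and *Psmb10* from -0.19 to 0.06, and the log2 ratio differences of *Psmb8* to *Psmb5* from -0.56 to -0.21, of *Psmb10* to *Psmb7* from -0.47 to -0.02, of *Psmb9* to *Psmb6* from -0.30 to 0.06, of *B2m* to the heavy chains from -0.42 to 0.11 and of *H2-K1* to *H2-D1* from -0.02 to 0.16. Of these, the following turned their sign. Without Prmt3f/f replicate 7, *H2-K1* was at -0.07, *H2-D1* at -0.04 and *B2m* at 0.06, with *B2m* to the heavy chains at 0.11 and *H2-K1* to *H2-D1* at -0.02. *Psmb9* was at -0.11 without Prmt3f/f replicate 66 and at -0.16 without Prmt3LKO replicate 94, which also put *H2-K1* to *H2-D1* at -0.01. Without Prmt3f/f replicate 71, *Tap2* was at 0.02, *Psmb8* at 0.10, *Psmb10* at 0.06 and *Psmb9* to *Psmb6* at 0.06. Without Prmt3LKO replicate 92 *Tap2* was at 0.00, and without Prmt3LKO replicate 93 *Psmb8* was at 0.03 and *Psmb9* to *Psmb6* at 0.02. Their cause was not tested beyond the smaller number of tumors. *Tap1* to *Tap2* stayed between -0.82 and -0.48 and *Psmb9* to *Tap1* between 0.58 and 0.93. No paired analysis was possible because the groups share no replicate numbers. Exon length in place of the length behind FPKM was chosen after seeing the data. It moved the mean level per length of 8 of the 10 genes by more than the spread between tumors (*H2-K1* from 170.6 to 422.8, *Tap1* from 3.32 to 7.07). The mean ratio of *Psmb10* to *Psmb7* moved from 1.07 to 0.765. No log2 difference between genotypes moved for a single gene or a ratio of 2 single genes, in which the length cancels. In *B2m* to the sum of the heavy chains the lengths weight the sum. That difference was -0.20 by FPKM and -0.21 as a ratio of counts. With 3 tumors a group, the number of tumors limits the precision.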
